A study of Mus musculus with 8 samples.

Results

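The transcripts of 10 genes of astrocytes and reactive gliosis were followed in the mouse brain after permanent occlusion of the middle cerebral artery (PMCAO) and injection of the neuropeptide PACAP38. The genes were *Gfap*, *Vim*, *Nes*, *Cd44*, *Serpina3n*, *Aqp4*, *Slc1a2*, *Slc1a3*, *Aldh1l1* and *Gja1*. They were taken by name, not by their values, and comprised every non-control probe that carried one of these names, 21 of the 41174 probes and 10 of the 27962 gene names on the array. A gene was described by its brightest probe, which was its sole probe for 4 of the 10 genes.

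Male C57BL/6J mice of 8 to 12 weeks, with no transgene or deletion, received a sham operation or PMCAO by an intraluminal filament, and right after surgery an injection into the cerebral ventricle of PACAP38 (1 pmol in 1 µl) or of saline (0.9% NaCl, 1 µl). The ipsilateral (right) hemisphere was collected at 6 h or 24 h, which gave 8 groups: sham with saline, sham with PACAP38, PMCAO with saline and PMCAO with PACAP38 at each of the times. Each group was 1 pool of RNA from 3 mice, and the PMCAO mice had been picked for a mild to moderate neurological grade, so that a pool stands for selected animals. The hemisphere was taken whole, with infarct core, penumbra and tissue that was not ischemic together. The PACAP38 and the saline pool of each surgery and time were hybridized against each other on 2 arrays with exchanged dyes (replicate 1 with PACAP38 in Cy5, replicate 2 with PACAP38 in Cy3). Because the study describes labeling of the same RNA in both dyes, these 2 arrays count as 1 replicate. Unless another spread is named, the tests of PMCAO against sham take it from how the PACAP38 to saline difference varied over the combinations of surgery and time. The PACAP38 and saline pools of a combination share their arrays, so differences between the sham and the PMCAO arrays do not enter those p-values and intervals. The tests of PACAP38 over saline take their spread from the pairs of pools.

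Astrocytes keep extracellular glutamate, potassium and water in balance. They take up glutamate through the transporters encoded by *Slc1a3* and *Slc1a2*, move water through aquaporin-4 (*Aqp4*) at endfeet on blood vessels, and are coupled by gap junctions built largely of the connexin that *Gja1* encodes. *Aldh1l1* encodes a folate enzyme used as a marker of the whole cell class. After injury astrocytes become reactive: they enlarge and build intermediate filaments from the proteins of *Gfap*, *Vim* and *Nes*, display the hyaluronan receptor CD44 and secrete the protease inhibitor that *Serpina3n* encodes. *Vim*, *Nes* and *Cd44* are also transcribed in vessels or in blood-borne immune cells.

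The promoters of the 5 gliosis genes (*Gfap*, *Vim*, *Nes*, *Cd44* and *Serpina3n*) are shown because their transcripts stood above sham after PMCAO at 24 h, and that of *Slc1a3* is shown beside them as a transporter gene whose level was nearly the same at 24 h. Each is the RefSeq sequence of the 250 bases before the start of the gene in GRCm38.p6, 5′ to 3′ on the strand of the gene. Capitals mark every match of 5 motifs on either strand. These were the STAT motif TTCNNNGAA, bound by factors downstream of cytokine receptors, and the AP-1 motif TGANTCA, bound by Fos and Jun proteins. The TATA box was searched as TATAAA. The GC box, a site of Sp-type factors, was searched as GGGCGG. The CCAAT box was searched by the letters of its name.
Gfap, chr11:102897201-102897450, minus strand: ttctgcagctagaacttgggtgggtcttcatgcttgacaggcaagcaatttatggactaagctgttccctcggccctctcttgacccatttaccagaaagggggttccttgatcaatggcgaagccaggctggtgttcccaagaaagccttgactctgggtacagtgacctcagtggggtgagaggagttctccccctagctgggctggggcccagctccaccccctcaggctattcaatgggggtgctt
Vim, chr2:13574061-13574310, plus strand: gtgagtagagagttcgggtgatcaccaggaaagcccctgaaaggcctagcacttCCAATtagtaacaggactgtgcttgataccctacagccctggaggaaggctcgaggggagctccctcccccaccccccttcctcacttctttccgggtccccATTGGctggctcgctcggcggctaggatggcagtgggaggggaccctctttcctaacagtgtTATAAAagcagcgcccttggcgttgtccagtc
Nes, chr3:87970843-87971092, plus strand: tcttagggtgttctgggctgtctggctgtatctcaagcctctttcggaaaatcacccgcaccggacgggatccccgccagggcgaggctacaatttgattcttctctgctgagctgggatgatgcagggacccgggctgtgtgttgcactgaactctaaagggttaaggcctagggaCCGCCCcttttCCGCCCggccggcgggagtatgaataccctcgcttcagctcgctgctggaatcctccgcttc
Cd44, chr2:102901666-102901915, minus strand: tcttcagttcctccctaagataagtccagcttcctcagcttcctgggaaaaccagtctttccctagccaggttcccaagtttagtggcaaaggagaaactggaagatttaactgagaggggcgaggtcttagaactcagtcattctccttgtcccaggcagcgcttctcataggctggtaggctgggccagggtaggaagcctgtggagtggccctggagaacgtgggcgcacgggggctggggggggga
Serpina3n, chr12:104406458-104406707, plus strand: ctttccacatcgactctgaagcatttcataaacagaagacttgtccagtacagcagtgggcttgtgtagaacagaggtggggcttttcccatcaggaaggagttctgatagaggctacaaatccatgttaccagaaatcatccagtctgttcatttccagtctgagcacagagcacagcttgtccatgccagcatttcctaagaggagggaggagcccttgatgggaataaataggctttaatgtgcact
Slc1a3, chr15:8710808-8711057, minus strand: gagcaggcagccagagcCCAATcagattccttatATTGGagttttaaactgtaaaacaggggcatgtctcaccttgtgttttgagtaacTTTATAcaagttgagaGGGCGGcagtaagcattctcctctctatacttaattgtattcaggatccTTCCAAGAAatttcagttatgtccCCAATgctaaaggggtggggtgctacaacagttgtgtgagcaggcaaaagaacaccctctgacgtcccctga

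Matches were few. Of the 9 promoters of these genes that were read (*Aqp4* was not analysed here), the STAT letters were present in *Slc1a3* alone, from 96 to 88 bases before the start, and the AP-1 letters in *Gja1* alone, from 19 to 13 bases before it. Over all 32851 promoter windows, 7.02% held the STAT letters and 6.75% the AP-1 letters. The TATA letters were present in *Vim* and *Slc1a3* (12.4% of all windows). In *Vim* they lay from 32 to 27 bases before the start, and in *Slc1a3* on the opposite strand, from 161 to 156 bases before it. A GC box was found in *Nes*, *Slc1a3* and *Aldh1l1* (32.7%) and CCAAT in *Vim*, *Slc1a3* and *Aldh1l1* (33.8%). No matches of different motifs overlapped. The windows of *Gfap*, *Cd44* and *Serpina3n* held none of the 5 motifs, so the genes with the higher levels at 24 h had no motif of this set in common.

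Levels are given as multiples of the 75th percentile of all probes in the same channel, since the number of arrays rather than a read depth limits the precision. Levels of different probes were not set against each other. They were added only in the summed levels of gene lists, where bright probes weigh most, and a sum was compared between pools only. Of the 21 probes, 16 were well above background in all 16 channels and 3 (a further probe each of *Vim*, *Cd44* and *Slc1a2*) in none. The sham 6 h array of replicate 2 stood apart: its profile correlated with the other 7 arrays at 0.839 to 0.869, against 0.956 to 0.998 among those 7 (17642 probes), and 10.65% of its spots were flagged by the scanner software, against 0.32 to 3.09%. Results at 6 h are therefore given also from the replicate 1 arrays alone. The 6 h and the 24 h arrays lie on separate slides, so time and slide cannot be told apart. The 2 pools of a surgery and time share their arrays, so array and surgery cannot be told apart within a time. As a check of the labels, 8 of 9 genes of the acute response to ischemia, with *Atf3*, *Hmox1* and *Ccl2* among them, were called higher after PMCAO at 24 h (array-wide 2.46%), and 7 of 9 at 6 h (array-wide 17.8%). With the 6 h levels from replicate 1 none was called at 24 h and 2 at 6 h, with the 24 h pools alone none at 24 h, and with the spread between arrays 4 at 24 h and 2 at 6 h. The median log2 difference of the 9 genes was 3.96 at 24 h and 2.52 at 6 h (3.46 from replicate 1). The 17 mature astrocyte markers and the 9 neuronal markers with a value throughout were well above background in every channel.

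After PMCAO the 5 gliosis genes stood above sham at 24 h on every array, compared in the same dye and injection. *Serpina3n* was 6.38-fold higher over both injections, *Cd44* 3.33-fold, *Gfap* 2.05-fold, *Vim* 2.03-fold and *Nes* 1.51-fold. Of these, *Serpina3n* passed the test across all probes. Over the whole array 2.46% of probes were called higher and 1.16% lower after PMCAO at 24 h (limma, adjusted p under 0.05; 889 and 419 probes, but 1806 and 2650 with normexp, loess and Aquantile), and of the 10 genes 2 were called higher and none lower by their brightest probe, the other being *Aldh1l1*, whose value rests on a failed spot as described below. Because a hemisphere is a mixture, more cells of a type and more RNA per cell cannot be told apart in these data, nor can fewer cells and less RNA per cell.

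*Serpina3n*, which encodes a secreted serine protease inhibitor, had at 24 h a level of 0.422 and 0.308 in the sham saline pool (replicate 1 and 2), 0.328 and 0.327 in the sham PACAP38 pool, 2.80 and 2.55 in the PMCAO saline pool and 1.64 and 1.98 in the PMCAO PACAP38 pool. The PMCAO and sham values did not overlap, and the PMCAO saline pool was the highest of the 8. The log2 difference was 2.67 ± 0.17 (SE, 4 against 4 channels of 2 pools each, adjusted p = 0.00501), 7.40-fold between the saline pools and 5.49-fold between the PACAP38 pools. The call held without any single pool (adjusted p 0.0108 to 0.0371), but not when the spread was taken from the 24 h pools alone (0.0633), with the 6 h levels from replicate 1 (0.0567) or with the spread between arrays (0.141). At 6 h the level was 0.527 and 0.648 in the PMCAO saline pool and 0.493 and 0.487 in the PMCAO PACAP38 pool, against 0.326 and 0.156 in the sham saline and 0.443 and 0.125 in the sham PACAP38 pool, the lower of each sham pair coming from the array that stood apart. The log2 difference at 6 h was 1.21 ± 0.17 (adjusted p = 0.00333), and 0.42 ± 0.26 (adjusted p = 0.405) from the replicate 1 arrays. Near-identical members of this serpin cluster can bind the same probe, so the value may hold more than 1 gene.

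*Gfap*, the intermediate filament gene by which reactive astrocytes are usually recognised, had at 24 h a level of 3.39 and 4.19 in the sham saline pool, 3.29 and 3.20 in the sham PACAP38 pool, 7.97 and 8.49 in the PMCAO saline pool and 6.36 and 6.17 in the PMCAO PACAP38 pool. All PMCAO values lay above all sham values, and the saline pool above the PACAP38 pool. The log2 difference was 1.04 ± 0.20 (adjusted p = 0.0549), 2.18-fold between the saline pools and 1.93-fold between the PACAP38 pools. The other *Gfap* probes gave 1.21 (adjusted p = 0.0181) and 1.38 (adjusted p = 0.0326), so the gene was past the threshold by its 2 dimmer probes and not by its brightest. With the 24 h pools alone the adjusted p of these 2 probes was 0.0787 and 0.104.

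At 6 h the *Gfap* probes disagreed. The brightest had 2.54 and 5.82 in the PMCAO saline and 4.22 and 5.02 in the PMCAO PACAP38 pool, against 3.299 and 8.57 in the sham saline and 3.87 and 10.2 in the sham PACAP38 pool (log2 -0.46 ± 0.20, adjusted p = 0.112, and -0.13 ± 0.30 from the replicate 1 arrays). Of the dimmer *Gfap* probes 1 was lower (-0.67, adjusted p = 0.012) and 1 higher (1.14, adjusted p = 0.00755). On the replicate 1 arrays the former was 0.944-fold and 0.954-fold in the saline and PACAP38 pools, and the latter 2.65-fold and 1.87-fold. A direction at 6 h was therefore not settled for *Gfap*.

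*Vim*, a filament gene that astrocytes share with endothelial and immune cells, had at 24 h a level of 5.40 and 6.05 in the sham saline pool, 5.87 and 5.22 in the sham PACAP38 pool, 13.2 and 14.8 in the PMCAO saline pool and 9.20 and 9.35 in the PMCAO PACAP38 pool. The groups did not overlap, and the log2 difference of 1.02 ± 0.22 did not pass the test (adjusted p = 0.0696). The fold was 2.45 between the saline pools and 1.68 between the PACAP38 pools. Without the PMCAO PACAP38 pool the difference was 1.36 and passed (adjusted p = 0.0392), and without the PMCAO saline pool it was 0.67 (adjusted p = 0.253). At 6 h the sham levels were 4.56 and 4.74 on replicate 1 but 16.3 and 16.7 on the array that stood apart, against 5.57 to 7.88 in the PMCAO pools. The log2 difference at 6 h of -0.34 (adjusted p = 0.262) accordingly turned to 0.47 (adjusted p = 0.359) from the replicate 1 arrays.

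*Cd44*, the hyaluronan receptor gene, had at 24 h a level of 0.440 and 0.475 in the sham saline pool, 0.440 and 0.390 in the sham PACAP38 pool, 1.98 and 1.85 in the PMCAO saline pool and 1.21 and 0.999 in the PMCAO PACAP38 pool. Its brightest spot was flagged on the array that stood apart, so the sham 6 h pools were left out of its fit. The log2 difference at 24 h was 1.74 ± 0.26 (adjusted p = 0.0545), 4.19-fold between the saline pools and 2.65-fold between the PACAP38 pools, and a second probe gave 1.66 ± 0.30 (adjusted p = 0.0505). Every PMCAO value was above every sham value at 24 h. With the flagged spot kept the difference was also 1.74, and it passed (adjusted p = 0.0335). At 6 h the level was 0.713 and 0.805 in the PMCAO saline pool and 0.816 and 0.912 in the PMCAO PACAP38 pool, against 0.434 and 0.408 in the sham pools on replicate 1, a log2 difference of 0.86 ± 0.26 (adjusted p = 0.169) from those arrays. The second *Cd44* probe disagreed at 6 h, with 0.651-fold between the saline and 0.911-fold between the PACAP38 pools (log2 -0.38 ± 0.30, adjusted p = 0.361). On the replicate 1 arrays it was at 0.966-fold and 1.82-fold (log2 0.41 ± 0.35, adjusted p = 0.571), so no direction was settled for *Cd44* at 6 h.

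*Nes*, a filament gene of neural progenitors that reactive astrocytes take up again, differed from the other 4. At 24 h its level was 1.13 and 1.34 in the sham saline pool, 1.08 and 0.876 in the sham PACAP38 pool, 2.42 and 2.72 in the PMCAO saline pool and 1.104 and 1.03 in the PMCAO PACAP38 pool. The PMCAO saline pool was the highest by far, while the PMCAO PACAP38 pool lay among the sham values. The log2 difference over both injections was 0.59 ± 0.31 (adjusted p = 0.349), made of 2.08-fold between the saline pools and 1.09-fold between the PACAP38 pools. At 6 h the 8 values ranged from 0.738 to 1.05 and overlapped between the groups (log2 0.11 ± 0.31, adjusted p = 0.808).

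**Figure D1:**
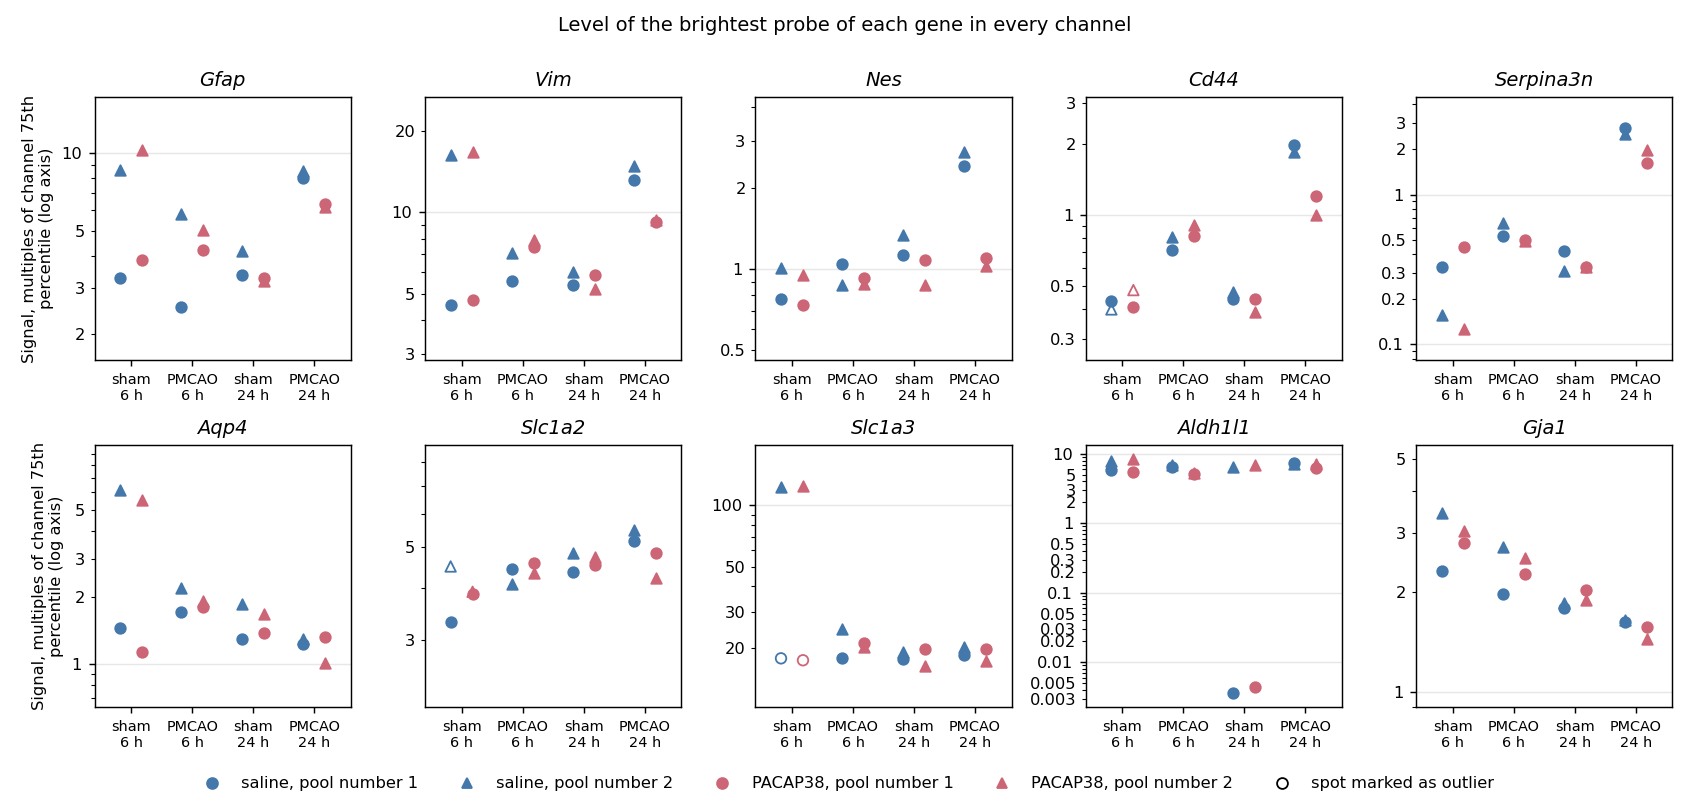
Level of each of the 10 genes (brightest probe, multiples of the 75th percentile of the channel, log axis) in the 8 pools, each point being 1 channel of 1 array: saline in blue, PACAP38 in red, circles for replicate 1 and triangles for replicate 2 (called pool number 1 and 2), open where the spot was flagged. *Serpina3n*, *Gfap*, *Vim* and *Cd44* were higher in all PMCAO than in all sham channels at 24 h, the sham 6 h triangles stand apart for *Gfap*, *Vim*, *Aqp4* and *Slc1a3*, and the *Aldh1l1* points at 0.00358 and 0.00441 are the failed spot.

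The genes of resting astrocyte functions moved little at 24 h. *Slc1a3* had levels from 16.3 to 19.8 in the sham and from 17.3 to 20.1 in the PMCAO channels, which overlapped, with a log2 difference of 0.05 ± 0.10 (95% interval -0.22 to 0.33, adjusted p = 0.815). *Slc1a2* ranged from 4.36 to 4.84 in sham and from 4.22 to 5.49 after PMCAO, with a difference of 0.09 ± 0.13 (-0.25 to 0.43, adjusted p = 0.759). Both values come from fits without the sham 6 h pools, where a spot of each was flagged. A change of the transporter transcripts beyond these intervals, which leave out the spread between arrays, was not seen at 24 h.

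*Aqp4* and *Gja1*, the water channel and gap junction genes of the endfoot and the astrocyte network, were slightly lower at 24 h without passing the test. *Aqp4* had 1.30 and 1.86 in the sham saline, 1.38 and 1.68 in the sham PACAP38, 1.22 and 1.29 in the PMCAO saline and 1.32 and 1.01 in the PMCAO PACAP38 pool, values that overlapped (log2 -0.35 ± 0.12, 95% interval -0.64 to -0.06, adjusted p = 0.17). With the variance modelled as a trend of the signal its adjusted p was 0.0272, and with normexp, loess and Aquantile the difference was -0.21 with an adjusted p of 0.0477. Its other probes gave -0.11 and -0.05. *Gja1* had 1.78 to 2.02 in sham and 1.44 to 1.64 after PMCAO, which did not overlap, and the log2 difference was -0.27 ± 0.12 (-0.56 to 0.02, adjusted p = 0.273). With normexp, loess and Aquantile *Gja1* had -0.26 with an adjusted p of 0.0483.

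*Aldh1l1* shows how 1 spot can make a call. At 24 h its level was 6.39 and 6.89 in the sham pools on replicate 2, but 0.00358 and 0.00441 on replicate 1, where the spot was not well above background in either channel and was not flagged. In the PMCAO pools it was 6.34 to 7.27. The fit over all arrays gave a log2 difference of 5.42 ± 0.16 (adjusted p = 0.000497), whereas replicate 2 alone gave 0.14 (1.104-fold) between the saline pools and 0.06 (1.04-fold) between the PACAP38 pools. The large difference was present on 1 array only and is not counted as a change of the gene.

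**Figure D2:**
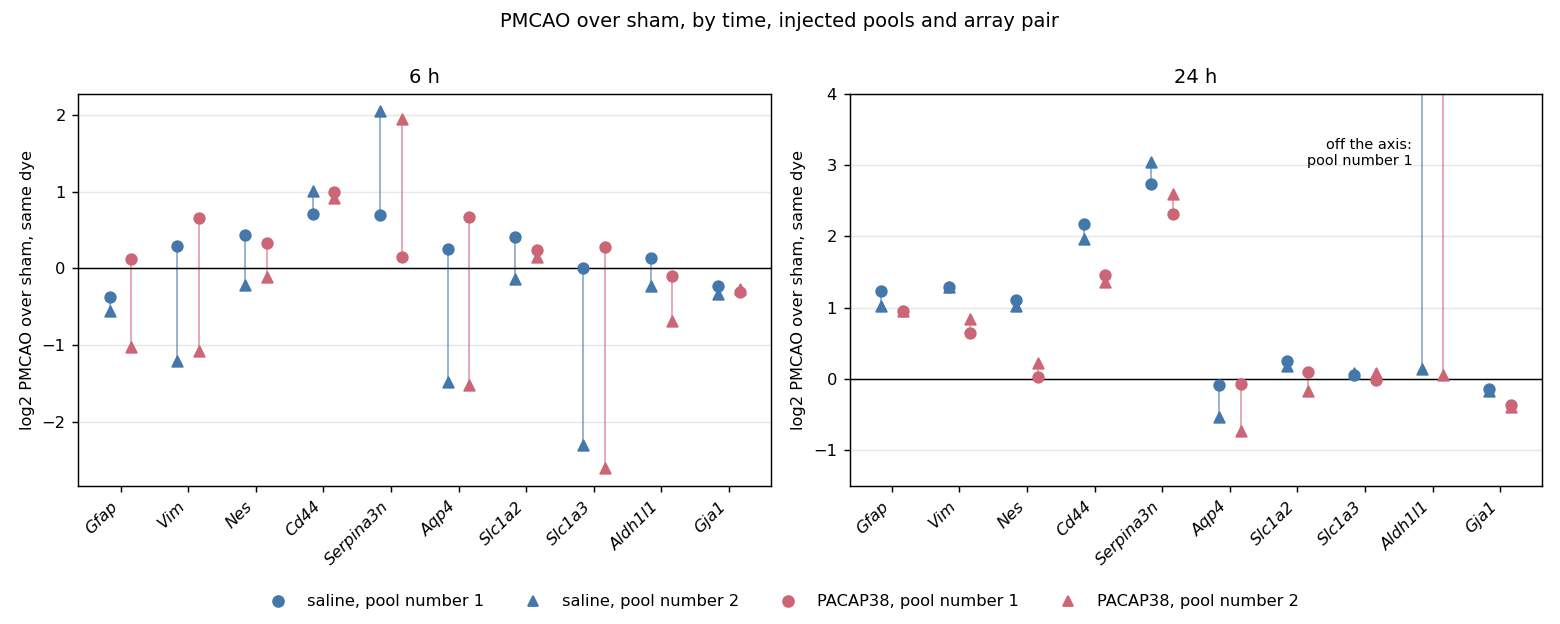
Log2 PMCAO over sham of the 10 genes (brightest probe, vertical axis) at 6 h (left) and 24 h (right), between the saline pools in blue and the PACAP38 pools in red, with circles for the replicate 1 and triangles for the replicate 2 arrays (called pool number 1 and 2) in the same dye. At 24 h *Serpina3n* lies highest apart from the failed spot of *Aldh1l1*, which is off the axis, and the transporter genes lie near 0. At 6 h the arrays disagree in sign for *Vim*, *Aqp4*, *Nes* and *Slc1a3* in both colours. They also disagree for *Gfap* in red only, and for *Slc1a2* and *Aldh1l1* in blue only.

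At 6 h the test called 17.8% of all probes higher and 27.4% lower, and with the replicate 1 arrays alone 0.764% and 0.0697%. The split of 6441 higher and 9906 lower probes became 4761 and 12559 with median scaling and 13423 and 7812 with flagged spots kept. Of the 7 genes whose brightest probe was in the fit, *Serpina3n* was called higher and *Aqp4* lower (log2 -0.52 ± 0.12, adjusted p = 0.0152). The *Aqp4* value rests on 6.19 and 5.52 in the sham pools on the array that stood apart, against 1.45 and 1.13 in the same pools on replicate 1 and 1.72 to 2.21 in the PMCAO pools. From the replicate 1 arrays it was 0.46 ± 0.16 (adjusted p = 0.2), and none of the 10 genes passed. The second *Aqp4* probe was called in the other direction (0.45, adjusted p = 0.0223). *Slc1a3* had 122 and 124 in the sham 6 h pools on the array that stood apart, 17.8 and 17.4 in the same pools on the other array, where the spot was flagged, and 17.9 to 24.8 in the PMCAO pools. *Gja1*, at -0.29 (adjusted p = 0.0953), and *Slc1a2*, at 0.33 from the replicate 1 arrays (adjusted p = 0.315), did not pass.

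The surgery effect at 24 h was set against that at 6 h by the interaction of surgery and time, which called 18.8% of probes higher and 10.3% lower at 24 h than at 6 h (6787 and 3722 probes, but 4757 and 8462 with flagged spots kept and 6375 and 6450 with normexp, loess and Aquantile). The difference of the effects was 1.498 ± 0.28 (log2) for *Gfap* (adjusted p = 0.0152), 1.46 ± 0.24 for *Serpina3n* (adjusted p = 0.0114) and 1.35 ± 0.31 for *Vim* (adjusted p = 0.0256), and it was not detectable for *Nes* (0.49 ± 0.43, adjusted p = 0.446). From the replicate 1 arrays at 6 h the differences were 1.16 for *Gfap* (adjusted p = 0.344), 2.25 for *Serpina3n* (adjusted p = 0.152) and 0.55 for *Vim* (adjusted p = 0.589). The dimmer *Gfap* probes did not agree on the time course. Between the saline pools 1 went from 0.664-fold at 6 h to 2.57-fold at 24 h, and the other from 2.41-fold to 3.22-fold. Between the PACAP38 pools the latter was 2.01-fold and 2.09-fold. Averaged over both times, where 15.7% of probes were called higher and 22.9% lower (5671 and 8260, but 3992 and 11009 with median scaling and 11020 and 6878 with flagged spots kept), *Serpina3n* was higher (log2 1.94, adjusted p = 0.0024), and *Aqp4* (-0.44, adjusted p = 0.0114) and *Gja1* (-0.28, adjusted p = 0.0442) were lower, with the array that stood apart among the sham arrays. With the pair of arrays as a random block the adjusted p was 0.349 for *Serpina3n*, 0.379 for *Aqp4* and 0.54 for *Gja1*.

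Within each injection at 24 h, with 1 pool a group and no test, 6 of the 10 genes were above 1.5-fold between the saline pools and 5 between the PACAP38 pools, *Aldh1l1* with its failed spot in each count and *Nes* in the first only. None was below 0.75-fold. Over all probes 9.56% were past the upper and 13.3% past the lower fold between the saline pools, and 6.39% and 8.19% between the PACAP38 pools. At 6 h 2 genes were above (*Cd44* and *Serpina3n*) and 4 below the fold between the saline pools, where the shares over all probes were 19.5% and 34.9%. Between the PACAP38 pools at 6 h 2 were above and 3 below, with shares of 17.0% and 30.6%, so that the counts at 6 h were read no further.

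Other genes linked to astrocytes were read from 6 lists. The RNA came from whole hemispheres, so the cells that held these transcripts were not identified. Of 9 genes that reactive astrocytes share after several kinds of injury, 7 were called higher at 24 h (2.46% of all probes) and none lower (1.16%), and the median log2 difference was 2.22, against 0.03 over all probes. The count was 3 of 9 with the spread between arrays, and 0 of 9 with the 24 h pools alone or with the 6 h levels from replicate 1. *Lcn2*, which encodes a secreted iron-siderophore carrier, had the largest of the called differences (4.29 ± 0.47, adjusted p = 0.0163, 40.4-fold between the saline and 9.54-fold between the PACAP38 pools) and *Cp*, the ceruloplasmin gene, the smallest (1.18 ± 0.15, adjusted p = 0.0227). Of 12 genes linked to reactive astrocytes after ischemia 5 were called higher and none lower, with a median of 1.84. Here the count was 3 of 12 with the spread between arrays, 2 with the 6 h levels from replicate 1 and 0 with the 24 h pools alone. The largest fitted difference in that list was that of *Slc10a6*, a transporter gene that was well above background in no sham channel at 24 h and in all 4 PMCAO channels. Measured against the lowest signals well above background, after loess and Aquantile and with both dyes equally in each group, it was at least 3.92-fold higher. The adjusted p of 0.00673 (limma) belongs to its fitted difference, and the bound itself was not tested. The smallest of the called differences was that of *Clcf1*, a cytokine gene (1.76 ± 0.23, adjusted p = 0.0226). *Tgm1* and *Steap4*, named here after their values were seen, were likewise below background in sham, at least 5.81-fold and at least 1.34-fold higher by the same rule. With such genes at their bound the median was 1.95 for the shared genes and 1.84 for the ischemia genes. Of 11 genes of interferon and complement-type reactivity, 1 was called higher, the GTPase gene *Gbp2* (1.32 ± 0.14, adjusted p = 0.0143), and the median was 0.62. None of the 11 was called under these other settings.

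None of 17 measured mature astrocyte genes (24 listed), of 6 endfoot and dystrophin complex genes or of 5 measured glial transporter and glutamate recycling genes (8 listed) was called at 24 h. Their log2 differences ran from -0.52 to 0.63 (median 0.05), from -0.54 to 0.06 (median -0.32) and from -0.46 to -0.11 (median -0.34). With the spread taken from the 24 h pools alone no gene of any list passed, as no probe of the array did (smallest adjusted p 0.0557, 10833 probes at an unadjusted p under 0.05).

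**Figure D3:**
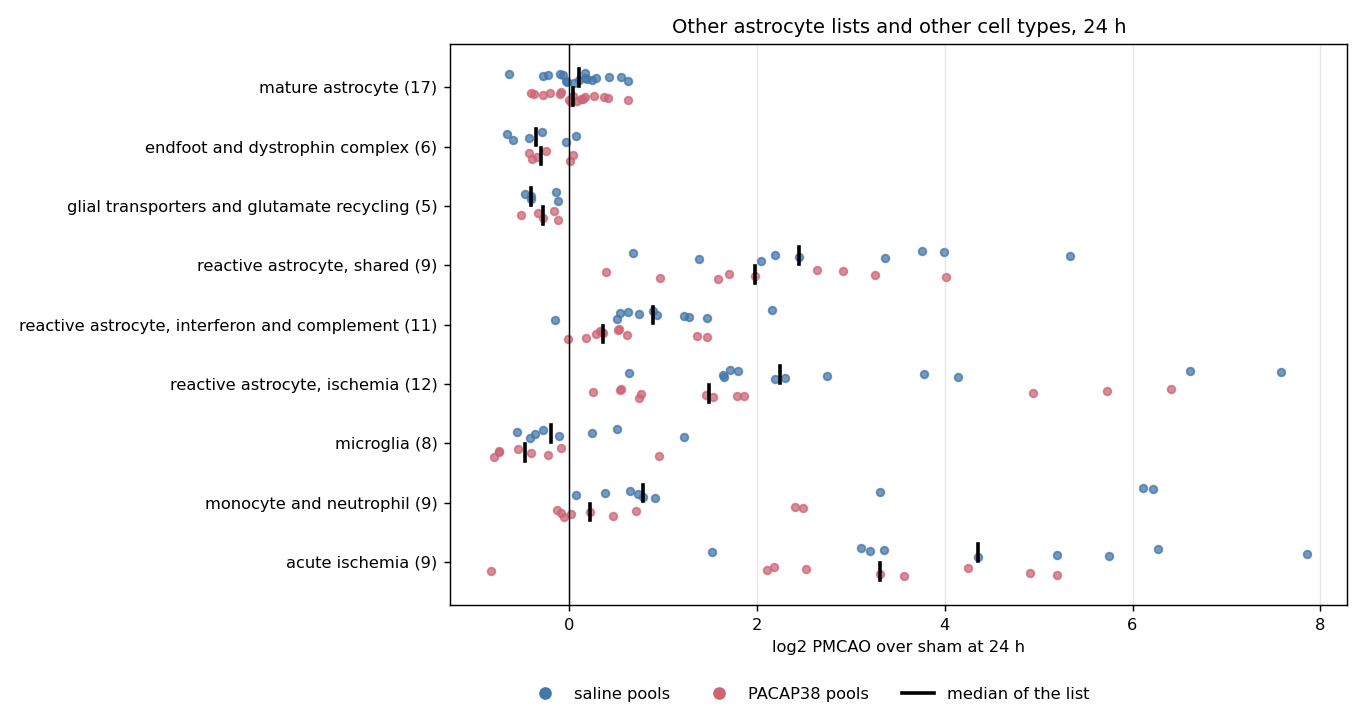
Log2 PMCAO over sham at 24 h (horizontal axis) for the genes of 6 astrocyte lists, of microglia, of monocytes and neutrophils and of the acute response to ischemia, each point being 1 gene (brightest probe, mean of 2 arrays) between the saline pools in blue or the PACAP38 pools in red, with the median as a black bar and the number of genes in brackets. The 17 mature astrocyte genes lie around 0 in both colours, the shared reactive and ischemia genes to the right of it, and the points of genes below background in sham show fitted values, not bounds.

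PACAP38 was compared with saline within each surgery and time as the mean log ratio of the 2 arrays, with 1 pool a group and no test. In PMCAO mice at 24 h, 4 of the 10 genes were below 0.75-fold (*Nes*, *Cd44*, *Vim* and *Serpina3n*) and none was above 1.5-fold, where over all probes 8.18% were below and 2.99% above. In the other 3 comparisons none of the 10 genes was past the fold. The shares over all probes were 3.98% above and 7.48% below in sham mice at 6 h, 5.41% and 6.9% in PMCAO mice at 6 h, and 1.75% and 3.87% in sham mice at 24 h. All 10 means were below 0 in PMCAO mice at 24 h (median log2 -0.30, with 0.00 over all probes), against 4, 5 and 7 of 10 in sham mice at 6 h, PMCAO mice at 6 h and sham mice at 24 h.

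*Nes* was the lowest of the 10, at 0.458-fold on replicate 1 and 0.383-fold on replicate 2 (mean 0.419). *Cd44* was at 0.612-fold and 0.547-fold (mean 0.578), and its second probe at 0.583-fold and 0.508-fold. *Vim* was at 0.699-fold and 0.640-fold (mean 0.669). These 3 genes were below 0.75-fold on both arrays, as were 3.75% of all probes. *Serpina3n* was at 0.588-fold and 0.788-fold (mean 0.681) and *Gfap* at 0.802-fold and 0.737-fold (mean 0.769), just inside the limit, with 0.790-fold and 0.667-fold for its other probes. The 5 genes below 0.80-fold were the 5 gliosis genes, and the 5 of resting functions lay from 0.857-fold (*Slc1a2*) to 0.969-fold (*Slc1a3*), with *Aqp4* at 0.928, *Gja1* at 0.928 and *Aldh1l1* at 0.950.

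In sham mice at 24 h the same ratios were 0.790-fold for *Nes*, 0.862-fold for *Gfap*, 0.905-fold for *Cd44*, 0.908-fold for *Serpina3n* and 0.968-fold for *Vim*. In PMCAO mice at 6 h they were 1.21-fold for *Vim*, 1.19-fold for *Gfap*, 1.13-fold for *Cd44*, 0.938-fold for *Nes* and 0.833-fold for *Serpina3n*. In sham mice at 6 h those of the 5 genes lay between 0.945-fold (*Nes*) and 1.18-fold (*Gfap*). The 2 arrays of a comparison agreed in sign for 7 of the 10 genes in PMCAO mice at 24 h and for 4 or 5 in the others. Over all bright probes the log ratios of the 2 arrays correlated at 0.405 in PMCAO mice at 24 h, 0.176 in PMCAO mice at 6 h, -0.003 in sham mice at 6 h and -0.626 in sham mice at 24 h, after the sign of the exchanged dye was turned.

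Over the 4 comparisons, the only replication of PACAP38 over saline, no probe of the array passed (limma, smallest adjusted p 0.871, 1782 of 36121 probes at an unadjusted p under 0.05). The mean log2 ratio was -0.44 ± 0.25 for *Nes*, -0.22 ± 0.12 for *Serpina3n*, -0.12 ± 0.05 for *Aqp4* (adjusted p = 0.871 for each) and 0.02 ± 0.04 for *Gja1* (adjusted p = 0.971). No probe passed for a difference of the PACAP38 effect between PMCAO and sham (smallest adjusted p 0.75, 2337 at an unadjusted p under 0.05) or between 24 h and 6 h (smallest adjusted p 0.879, 1887 at an unadjusted p under 0.05). *Gfap* had -0.54 ± 0.08 for 24 h minus 6 h (adjusted p = 0.879 in limma). A dependence of the PACAP38 effect on surgery or time was not detectable for these genes with 4 pairs of pools.

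**Figure D4:**
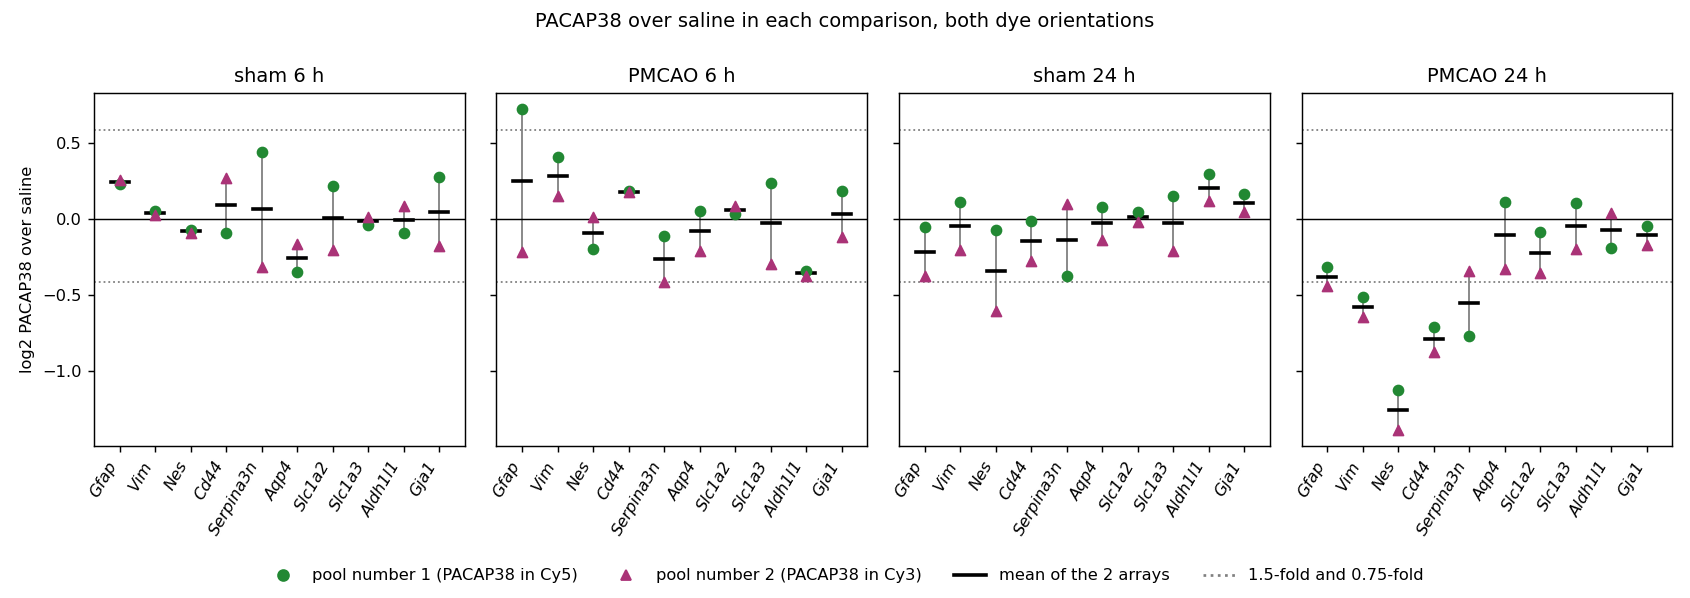
Log2 PACAP38 over saline (vertical axis) of the 10 genes (brightest probe) in the 4 comparisons, with circles for the replicate 1 and triangles for the replicate 2 arrays (called pool number 1 and 2), a bar at their mean and dotted lines at 1.5-fold and 0.75-fold. In PMCAO mice at 24 h *Nes*, *Cd44* and *Vim* lie below the lower line on both arrays, and in the other comparisons every mean lies between the lines.

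The lists were read in the same comparison, PMCAO mice at 24 h, where 8.18% of all probes were below 0.75-fold and the median log2 ratio was 0.00, with no test. Counting genes well above background in all 4 channels, 7 of 9 shared reactive genes were below 0.75-fold with PACAP38 (median log2 -0.80), 10 of 11 ischemia genes (median -1.06), 4 of 11 interferon and complement genes (median -0.29) and none of 17 mature astrocyte genes (median -0.06). The summed level of the shared reactive genes was 32.9 in the PMCAO saline pool and 16.7 in the PMCAO PACAP38 pool at 24 h, against 5.55 and 4.56 in the sham pools. That of the ischemia genes was 33.7 and 15.3, against 10.2 and 9.73. The mature astrocyte genes summed to 392 and 377, against 382 and 366 in sham. In PMCAO mice at 6 h, 5.41% of all probes were above 1.5-fold and 6.9% below 0.75-fold with PACAP38. There 2 of 8 shared reactive genes were above and none below (median log2 0.09). Of 11 ischemia genes 2 were above and none below (median 0.29), and of 17 mature astrocyte genes 2 were below and none above.

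Genes of other cells moved with these values. The summed level of 9 monocyte and neutrophil markers was 60.2 in the PMCAO saline and 12.8 in the PMCAO PACAP38 pool at 24 h, and 7.0 and 8.42 in the sham pools. Over both injections their log2 PMCAO over sham ran from 0.05 to 4.36 with a median of 0.43, so the sum does not stand for each marker. Of these markers 4 were well above background in all 4 channels of PMCAO mice at 24 h, and all 4 were below 0.75-fold with PACAP38. *S100a8*, a neutrophil calgranulin gene, was 74.7-fold above sham in the saline and 5.62-fold in the PACAP38 pool at 24 h without passing the test (adjusted p = 0.066), as was true of all 9, while the granule genes *Elane* and *Camp* were well above background in no channel. The acute response genes summed to 40.8 with saline and 17.2 with PACAP38 after PMCAO, against 3.64 and 3.51 in sham, and all 9 were below 0.75-fold with PACAP38. In PMCAO mice at 6 h they summed to 28.9 with saline and 45.1 with PACAP38. Of the 8 well above background there, 5 were above 1.5-fold and none below 0.75-fold. Microglial markers summed to 12.9 and 11.0, against 13.6 and 14.6 in sham, and neuronal markers to 149 and 153, against 166 and 167. Endothelial markers, of cells that also transcribe *Vim*, *Nes* and *Cd44*, summed to 19.8 and 14.9, against 17.6 and 17.7, with 3 of 7 below 0.75-fold and 1 above 1.5-fold with PACAP38 after PMCAO. *Cdh5*, the cadherin gene of endothelial junctions, named after its values were seen, was 3.74-fold above sham with saline and 1.41-fold with PACAP38. It does not stand for its list: over both injections 3 of the 7 endothelial markers were above sham at 24 h and none was called. Their log2 differences ran from -0.797 to 1.2, with a median of -0.125. Oligodendrocyte markers summed to 185 and 134, against 165 and 160, with 2 of 5 below 0.75-fold, and pericyte and smooth muscle markers to 9.06 and 7.91, against 8.36 and 7.98, with 2 of 6. The 5 markers of the olfactory bulb, a region that was removed at dissection, summed to 2.54 with saline and 0.697 with PACAP38 after PMCAO, against 0.766 and 0.913 in sham, and the 3 well above background in all 4 channels were below 0.75-fold. The part of these differences in the values of *Nes*, *Cd44*, *Vim*, *Serpina3n* and the reactive astrocyte lists was not tested. With 1 pool of 3 mice a group, an effect of PACAP38 and a difference between the pooled mice cannot be told apart.

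The transcripts most like *Gfap* over the 8 pools were *Slc14a1*, *Anxa8*, *Glod5*, *Col5a3* and *S100a4*, with Pearson correlations of 0.951 to 0.964 among 13186 genes well above background throughout. The second *Cd44* probe (0.963) and *Vim* (0.975) lay in the same range or above, *Serpina3n* (0.564) and *Nes* (0.514) lower. This order did not hold with the 6 h levels from replicate 1. There *Vim* was at 0.8919, *Serpina3n* at 0.8825, the brightest *Cd44* probe at 0.7956 and *Nes* at 0.6913. The second probe of *Slc1a2*, the brightest with a value in every pool, was most like *Jakmip1*, *Hectd4*, *Rgp1*, *Kbtbd3* and *Exosc10* (0.941 to 0.966). With the 6 h levels from replicate 1, 0 of these 5 names recurred for either gene. That ranking was among 15147 genes and used the brightest *Slc1a2* probe, so for *Slc1a2* the probe changed as well as the 6 h levels. The 8 points of each correlation share slides and arrays, so the values describe these pools only.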

How the data were processed

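Whole ipsilateral hemispheres were profiled on 8 two-colour Agilent arrays, 4 dye-swapped pairs, with RNA of 3 mice pooled per group and 900 ng per labeling. The deposited intensity values (processed Cy3 and Cy5 signals, background-subtracted and dye-normalized) and the log10 ratios of Cy5 over Cy3 were made by the authors with Agilent Feature Extraction (version 9.5.3.1 in the processing notes of the submitters, with an older release in the headers of the 6 h files). The deposited table of processed values held the ratio of Cy5 over Cy3 for arrays with PACAP38 in Cy5 and, as a score, its negative for arrays with PACAP38 in Cy3; it served as an alternative.

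Control spots and flagged spots were left out and spots of a probe averaged. Log2 processed signals were centred on the 75th percentile of each channel. The 2 channels of a pool were averaged, and PMCAO was tested against sham in limma 3.58.1 (R 4.3.3) over the 8 pools with surgery, time, their interaction and injection, on 36121 probes with a value in all 16 channels, with Benjamini-Hochberg adjustment at 0.05. For *Cd44*, *Slc1a2* and *Slc1a3*, whose brightest probe had a flagged spot, the pools with a missing channel were left out. PACAP38 over saline was the log ratio with its sign turned where PACAP38 was in Cy3, averaged over the dye swap and tested over the 4 comparisons. A ratio in 1 comparison was called past the fold above 1.5 or below 0.75. List genes were counted there only where well above background in all 4 channels, a rule added after the data were seen. The design has no second pool of a group, so the spread is that around the additive model. Probes were named by the array design and updated through RefSeq (GRCm38.p6): 23082 matched by accession, 6582 by symbol and 3073 by synonym, and 8437 kept the name of the design. Precision is limited by the number of arrays. Scripts ran in Python 3.11.15 and were tested on simulated data.

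The 10 genes, the lists of other genes and the tests were chosen with earlier results of these data known. All probes of the 10 genes were read, and a gene was described and counted by its brightest probe. Also named were the 5 genes most correlated with *Gfap* and with *Slc1a2* and, in each list, the called genes with the largest and smallest fitted change at 24 h. The labels call the 2 arrays of a comparison pooled 1 and pooled 2. From the dye-swap labeling of the same RNA that the study describes, these numbers were read as the dye orientation, not separate mice. Deviations of arrays with the same number correlated at -0.0698 to 0.389 (17642 probes), so the numbers were not taken to pair the samples.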

Additional observations from a re-analysis of the deposited data

Results flagged for a closer look

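The PMCAO effect differed between 24 h and 6 h, by the interaction of surgery and time in limma, for *Gfap* (24 h minus 6 h 1.498 on the log2 scale, adjusted p = 0.0152), *Serpina3n* (1.46, adjusted p = 0.0114), *Vim* (1.35, adjusted p = 0.0256) and *Aldh1l1* (5.64, adjusted p = 0.00179, with the failed sham spot at 24 h). The first 3 did not pass with the 6 h levels from replicate 1. These values are of the brightest probe. A dimmer *Gfap* probe was above sham at both times, at 2.01-fold and 2.09-fold between the PACAP38 pools at 6 h and 24 h.

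For 5 genes the log2 ratio of PACAP38 over saline had opposite signs in a pair of comparisons, the same on both arrays of each, and the difference was not tested within these pairs. *Gfap* had 0.24 in sham mice at 6 h and -0.21 at 24 h. In PMCAO mice *Vim* had 0.28 at 6 h and -0.58 at 24 h, *Cd44* 0.18 and -0.79, and *Slc1a2* 0.060 and -0.22. *Gja1* had 0.11 in sham and -0.11 in PMCAO mice at 24 h.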

How the results depend on the processing

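The number of probes called for PMCAO over sham at 24 h (1308) was 833 with quantile normalization, 2379 with only probes well above background throughout, 4050 with a variance trend, 4456 with normexp, loess and Aquantile, 122 with the spread between arrays, 66 with the 6 h levels from replicate 1 and 0 with the 24 h pools alone (limma, 10833 at an unadjusted p under 0.05), and from 85 (without the PMCAO saline pool) to 1016 when 1 pool or replicate was left out. The calls at 6 h (16347) fell to 335 with the replicate 1 levels, 6 with the spread between arrays and 10843 with the mean of all probes of a gene, where fewer features were tested, and ranged from 372 (without replicate 2) to 21780 (without replicate 1). Those of the mean over both times (13931) were 290, 185 and 9171 under these settings, 0 with the pair of arrays as a random block (4913 at an unadjusted p under 0.05) and 713 to 18036 with a replicate or pool left out. Those of 24 h minus 6 h (10509) were 66, 0 (2052 at an unadjusted p under 0.05) and 6605, and 127 to 17121. The median log2 difference over all probes at 6 h moved from -0.09 to -0.26 with median scaling and to 0.23 with flagged spots kept. The causes were not tested.

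With the replicate number in the model, the channels of a pool were fitted separately for PMCAO over sham, with the pool as the block. The calls at 24 h were then 3622, those at 6 h 18800, those of the mean 15740 and those of 24 h minus 6 h 12050. The fitted correlation within a pool was negative (-0.5353). Channels of a pool were read as holding the same RNA, not as separate replicates, so these higher counts were not read as stronger evidence. PACAP38 over saline had 0 calls with the replicate number in the model. Its smallest adjusted p in limma was 0.891 for the mean, 0.207 for PMCAO minus sham and 0.23 for 24 h minus 6 h. PACAP38 over saline gave 0 calls under every setting run.

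Some directions turned at 6 h. *Gfap* was at 0.0023 with the mean of its probes. *Vim* was at 0.043 with quantile normalization, 0.039 with flagged spots kept, 0.055 with normexp, loess and Aquantile and 0.47 with the replicate 1 levels. *Nes* was at -0.060 with median scaling and from -0.16 to 0.38 with a pool or replicate left out. *Aqp4* was at 0.46 with the replicate 1 levels and 0.053 with normexp, loess and Aquantile. *Slc1a2* was at -0.00030 with the mean of its probes. *Aldh1l1* was at 0.15 with flagged spots kept, 0.016 with the replicate 1 levels and 0.12 with normexp, loess and Aquantile. *Gja1* was at 0.13 with flagged spots kept and 0.055 with normexp, loess and Aquantile, and its mean PACAP38 ratio ranged from -0.11 to 0.15 with a comparison or replicate left out. With a pool or replicate left out, the 6 h values ranged from -1.14 to 0.47 for *Vim*, from -1.503 to 0.46 for *Aqp4* and from -0.46 to 0.016 for *Aldh1l1*.

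Of the 10 genes, 2 were past 1.5-fold either way with PACAP38 in PMCAO mice at 24 h (4 at the limits used), 1 without either replicate in PMCAO mice at 6 h, and 0 to 1 in sham mice at 24 h. For PMCAO over sham at 6 h, 2 were past the fold on both arrays and 2 by the mean of all probes between the saline pools (6 at the limits used), with 2 to 6 on a single array. Between the PACAP38 pools (5) it was 3 at 1.5-fold either way, 1 on both arrays and 1 by the mean of all probes, with 3 to 7 on a single array. Over all settings 373 of the log2 results of single genes kept direction and call, 24 passed newly, 39 no longer passed and 22 turned. Dim probes, 3 of the 21, carry no usable level.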
